A study of Mus musculus with 12 samples.

Results

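The genes described here, Sptlc2, Elovl1, Elovl4, Cyp4f39, Cers3, Ugcg, Abca12, Smpd1 and Pnpla1, encode enzymes and a transporter that supply the epidermis with barrier ceramides. They were taken by gene symbol as members of this pathway, with earlier results of these data known. All 9 were found among the 50684 genes of the count table. Ears of female C57BL/6 mice aged 8 weeks received intradermal injections of 5 µL into the pinna. PBS alone was the control, and the other groups received 1 µg of IL-17A, 1 µg of IL-36γ, or 1 µg of each (IL-17A + IL-36γ). The model was set up to study the cytokines of psoriasis, and the ears were taken for RNA-Seq when treatment had run for 4 days in a row. Each group of the study held 5 mice, of which 3 were sequenced, giving 12 libraries. The homogenized tissue was a part of the ear and not isolated epidermis. Its RNA therefore also came from dermis, cartilage, muscle, fat and infiltrating cells. Values are in CPM, the count of a gene relative to the TMM-scaled size of its library, and group values are mean ± SD of 3 mice. Changes are log2 fold changes with their standard error (SE), tested with the quasi-likelihood test of edgeR, and a gene passed at a Benjamini-Hochberg adjusted p below 0.05 over the 19408 genes tested. All 9 members were tested, and their counts per library ranged from 1175 for Pnpla1 to 52897 for Elovl4.

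The outermost layer of the skin holds water because flattened dead keratinocytes lie in stacked sheets of ceramides, cholesterol and free fatty acids. Keratinocytes build a class of ceramides found almost nowhere else, in which a fatty acid of extreme length carries a hydroxyl group at its end that is esterified with linoleic acid. The base is made by serine palmitoyltransferase, the fatty acid is lengthened by ELOVL enzymes and hydroxylated by a cytochrome P450, a ceramide synthase joins them, the product is glucosylated, packed into lamellar bodies and secreted, and enzymes outside the cell release the ceramide. Inherited loss of several of these genes gives ichthyosis, a disease of scaling skin.

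The stretch before the transcription start was read for the 9 members from RefSeq promoter windows of GRCm38.p6, which run from 250 bases before to 50 bases after a start. The windows of Cers3, the member with the largest change in these data, and of the elongases Elovl1, which rose, and Elovl4, which did not pass, are shown up to the start, 5′ to 3′ on the strand of the gene. Capitals mark the PPAR half-site AGGTCA in Cers3 and the GC box GGGCGG, here on the opposite strand as CCGCCC, in the elongases.
Cers3 (chr7:66743254-66743503, plus strand): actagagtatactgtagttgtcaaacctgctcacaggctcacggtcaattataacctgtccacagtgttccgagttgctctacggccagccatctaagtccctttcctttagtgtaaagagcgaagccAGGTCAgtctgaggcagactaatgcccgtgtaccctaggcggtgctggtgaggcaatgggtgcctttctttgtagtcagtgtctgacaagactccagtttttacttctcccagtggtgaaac
Elovl1 (chr4:118427843-118428092, plus strand): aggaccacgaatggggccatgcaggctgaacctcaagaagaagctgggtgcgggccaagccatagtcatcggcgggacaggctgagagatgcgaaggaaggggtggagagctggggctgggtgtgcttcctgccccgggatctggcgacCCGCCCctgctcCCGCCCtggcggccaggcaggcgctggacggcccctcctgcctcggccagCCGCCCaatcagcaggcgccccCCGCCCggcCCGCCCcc
Elovl4 (chr9:83806306-83806555, minus strand): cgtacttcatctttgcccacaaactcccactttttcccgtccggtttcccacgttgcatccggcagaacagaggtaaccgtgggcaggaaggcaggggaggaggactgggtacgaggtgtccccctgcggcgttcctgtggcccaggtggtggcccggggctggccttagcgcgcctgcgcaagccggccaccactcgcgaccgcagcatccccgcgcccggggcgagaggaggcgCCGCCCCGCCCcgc
Cers3 held 1 PPAR half-site, which began 122 bases before the start. Elovl1 held 5 GC boxes, the closest of them 8 bases before the start, and Elovl4 held 2 that overlapped by a single base. The bases shown were 49.6% G or C in Cers3, 72% in Elovl1 and 69.6% in Elovl4. Over whole windows of 300 bases on both strands, 6 of the 10 windows of the members (Elovl1 has 2) held a GC box and 3 held a PPAR half-site, against 35.7% and 16.3% of the 32851 windows of all genes. None of the 10 windows held the AP-1 motif TGANTCA (7.81% of all windows), the NF-κB motif GGANTTTCC (1.25%), the STAT motif TTCNNNGAA (8.3%), the grainyhead motif AACCGGTT (0.146%) or the TATA box TATAAA (13.6%). These are matches of letters in short windows and were not tested for binding.

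Libraries held between 25293468 and 34759293 counts, and mice of a group varied with a common biological coefficient of variation of 14.2%. Markers of keratinocytes were abundant in all 12 libraries. The summed level of 8 genes of differentiating keratinocytes was 11010 to 15580 CPM in PBS libraries and 11430 to 15390 CPM in IL-17A libraries. It was 16940 to 23150 CPM in IL-36γ libraries and 19630 to 21400 CPM in combination libraries. Krt10 had the highest PBS mean of these genes, 6100 CPM. Krt1 had a PBS mean of 392 CPM and reached 8070 CPM in its highest library. Log2 fold changes of the 8 genes after the combination ranged from -2.17 to 4.21. The sum therefore does not stand for each gene. Markers of skeletal muscle in PBS replicate 1 summed to 172.9 CPM, against 1473 and 1754 CPM in the other PBS libraries, and this library was also the highest of the PBS group for all 9 members. Calls of members against PBS that rest on it are therefore given with and without it. Scaling by library size in place of TMM shifted the median change of all genes from 0.042 to -0.128 for IL-17A, from -0.015 to -0.165 for IL-36γ and from -0.025 to -0.168 for the combination, each against PBS. The split of raised and lowered genes turned with it, from 3366 raised and 2153 lowered to 2137 and 4274 after IL-36γ, from 1443 and 677 to 487 and 1993 after IL-17A, and from 4608 and 4056 to 3213 and 5941 after the combination.

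The members that changed were raised, and they were raised in ears that had received IL-36γ. Against PBS, none of the 9 members passed after IL-17A, while IL-36γ raised 5 and the combination raised 6, and none was lowered. Cers3 and Abca12 changed most, and Elovl4, the most abundant of the members, did not pass in any group. Among all tested genes, 7.44% were raised after IL-17A, 17.3% with IL-36γ and 23.7% with the combination. The share for IL-17A rested on single libraries. Its 1443 raised genes became 3004 without PBS replicate 1, 314 without PBS replicate 2, 19 without PBS replicate 3, 66 without IL-17A replicate 1, 426 without IL-17A replicate 2, 957 without IL-17A replicate 3, 810 without IL-36γ replicate 1, 636 without combination replicate 2, 918 without combination replicate 3, and 17 when PBS and IL-17A alone were fitted. For IL-36γ the 3366 raised genes fell to 2008 without PBS replicate 3 and to 2156 without IL-36γ replicate 1. They became 4277 without PBS replicate 1. The changes were small. With the threshold of the study, which also asks for a log2 fold change above 1, no member passed after IL-36γ (5.11% of all genes) and only Cers3 passed after the combination (7.35% of all genes). In a bulk sample, a larger share of a cell type and more RNA per cell cannot be told apart.

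**Figure D1:**
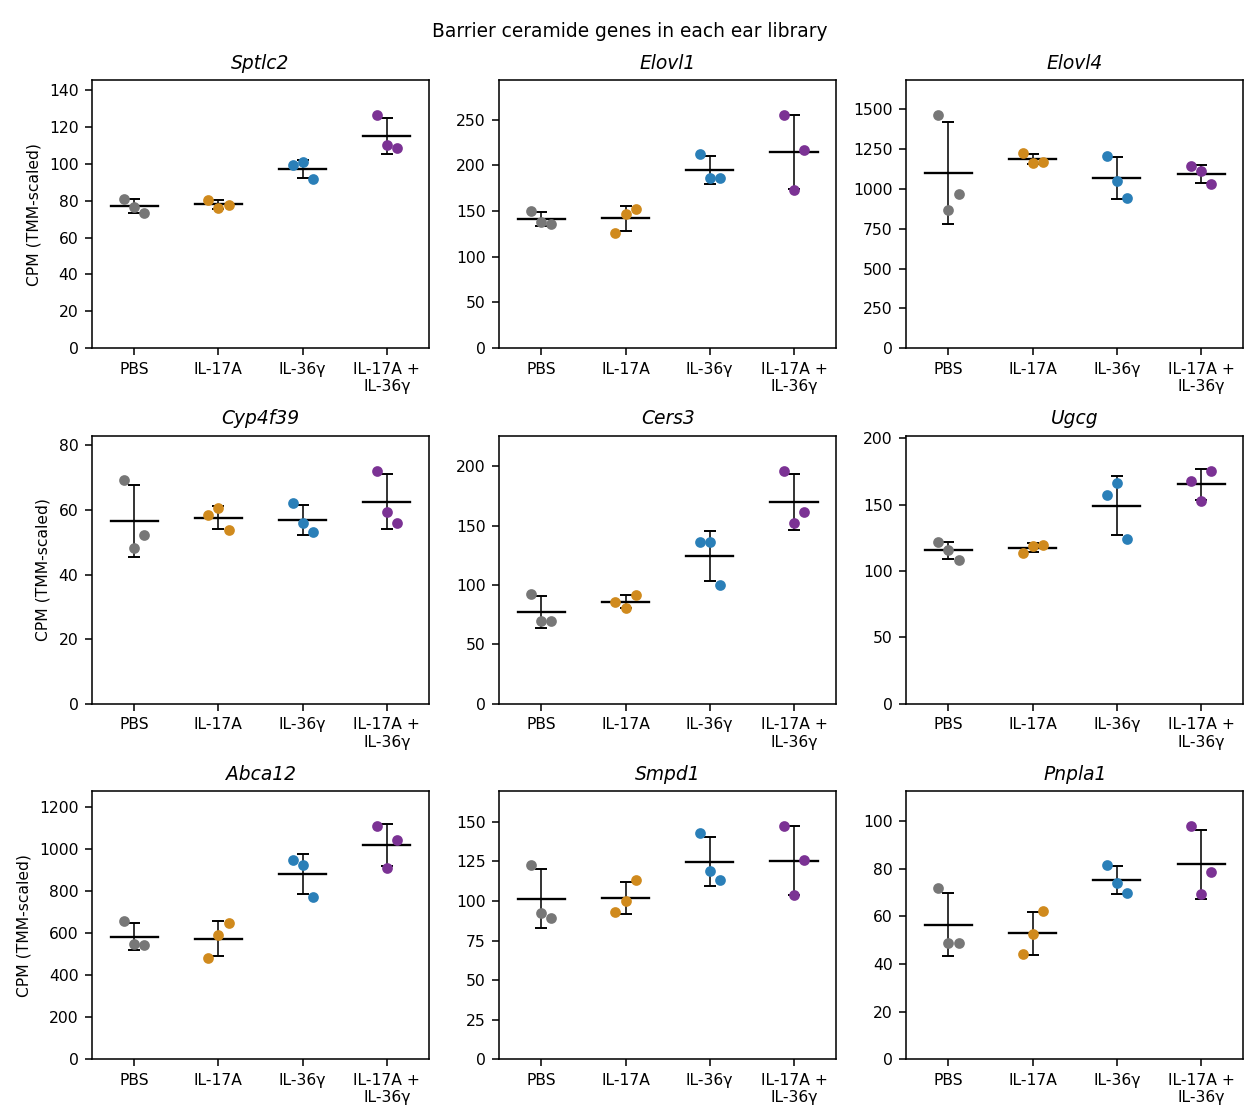
CPM (vertical axis, from 0) of the 9 genes in each library, in the order of the pathway. Points are mice, long bars are group means and error bars are SD of 3 mice. For Sptlc2, Elovl1, Cers3, Ugcg and Abca12 every library of the groups given IL-36γ lies above all 3 PBS libraries. For Elovl4 and Cyp4f39 every cytokine group overlaps the PBS group.

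Sptlc2 (ENSMUSG00000021036, chr12:87305058-87388355, minus strand) encodes a catalytic subunit of serine palmitoyltransferase, which opens sphingolipid synthesis. Its level was 81.2, 76.5 and 73.5 CPM in the PBS libraries, 80.5, 75.9 and 77.8 after IL-17A, 99.3, 101 and 91.9 after IL-36γ, and 126, 110.5 and 108.5 after the combination. The IL-17A libraries lay within the PBS range, and every library with IL-36γ lay above both groups. The log2 fold change against PBS was 0.34 (SE 0.07, adjusted p = 0.00552) after IL-36γ and 0.58 (SE 0.07, adjusted p = 0.000104) after the combination. Its coefficient of variation between mice of a group was 2.95% to 8.52%.

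Elovl1 (ENSMUSG00000006390, chr4:118428093-118432953, plus strand) encodes an elongase that carries saturated acyl chains to the very long range. It measured 150.1, 138.5 and 135.5 CPM after PBS and 126.5, 147 and 152 after IL-17A. The IL-36γ libraries held 213, 186.3 and 186.2 CPM and the combination libraries 255, 173 and 216 CPM, all above the PBS libraries. Elovl1 rose by 0.46 (SE 0.12, adjusted p = 0.0164) after IL-36γ and by 0.60 (SE 0.12, adjusted p = 0.00212) after the combination. It shares 53 of 2726 exon bases with Cdc20 on the opposite strand. Cdc20, a gene of dividing cells, was at 13.6 to 29.2 CPM after PBS and 63.9 to 83.3 CPM after the combination, and its part in the Elovl1 counts was not tested.

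Elovl4 (ENSMUSG00000032262, chr9:83778692-83806277, minus strand) encodes the elongase that makes the ultra-long chains of acylceramides. Its levels were 1464, 865 and 970 CPM after PBS, 1228, 1166 and 1172 after IL-17A, 1210, 1052 and 944 after IL-36γ, and 1142, 1113 and 1032 after the combination. PBS replicate 1 was the highest of the 12 libraries and PBS replicate 2 the lowest, so every other library lay within the PBS range. The change was -0.04 (95% interval -0.40 to 0.31, adjusted p = 0.863) after IL-36γ and -0.01 (95% interval -0.36 to 0.35, adjusted p = 0.981) after the combination. A change of either sign within these intervals is therefore not excluded. Without PBS replicate 1 the values were 0.22 (adjusted p = 0.124) and 0.26 (adjusted p = 0.067), and Elovl4 passed after IL-17A (0.38, adjusted p = 0.0291).

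Cyp4f39 (ENSMUSG00000061126, chr17:32452723-32493320, plus strand) encodes the cytochrome P450 that adds the hydroxyl group to the end of ultra-long fatty acids. Its group means were 56.6 ± 11.1 CPM after PBS, 57.7 ± 3.5 after IL-17A, 57.0 ± 4.7 with IL-36γ and 62.5 ± 8.5 with the combination, and the groups overlapped. The change after the combination was 0.14 (95% interval -0.14 to 0.43, adjusted p = 0.394). Without PBS replicate 1, at 69.2 CPM the highest PBS library, it was 0.32 (adjusted p = 0.0316).

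Cers3 (ENSMUSG00000030510, chr7:66743504-66823691, plus strand) encodes the ceramide synthase that takes ultra-long acyl chains. It measured 92.7, 70.0 and 69.5 CPM after PBS, 85.5, 80.9 and 91.6 after IL-17A, 136.3, 136.5 and 100.2 after IL-36γ, and 196, 152 and 161 after the combination. The PBS and IL-17A libraries overlapped, every IL-36γ library lay above all of them, and every combination library above all IL-36γ libraries. Against PBS the change was 0.68 (SE 0.15, adjusted p = 0.00525) after IL-36γ and 1.13 (SE 0.15, adjusted p = 0.000121) after the combination, a 2.20-fold level with a 95% interval of 1.76 to 2.74. The change after IL-17A was 0.15 (95% interval -0.16 to 0.47, adjusted p = 0.506).

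Ugcg (ENSMUSG00000028381, chr4:59189257-59222833, plus strand) encodes the glucosylceramide synthase, which adds glucose to ceramides before they are packed. Its levels were 122, 116 and 109 CPM after PBS, 114, 119 and 119.7 after IL-17A, 157, 166 and 124 after IL-36γ, and 168, 152 and 175.5 after the combination. IL-36γ replicate 3 lay just above the highest PBS library and the other libraries with IL-36γ well above it. Ugcg rose by 0.37 (SE 0.10, adjusted p = 0.0171) after IL-36γ and by 0.52 (SE 0.10, adjusted p = 0.00147) after the combination.

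Abca12 (ENSMUSG00000050296, chr1:71242276-71414910, minus strand) encodes the transporter that loads glucosylceramides into lamellar bodies. It was measured at 659, 550.1 and 543 CPM after PBS, 483, 591 and 649 after IL-17A, 950.4, 924 and 771 after IL-36γ, and 1108, 910.5 and 1042 after the combination. The groups without IL-36γ overlapped each other and lay below all libraries with IL-36γ. The log2 fold change against PBS was 0.59 (SE 0.13, adjusted p = 0.00611) after IL-36γ and 0.80 (SE 0.13, adjusted p = 0.000483, 1.75-fold) after the combination.

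Smpd1 (ENSMUSG00000037049, chr7:105554360-105558389, plus strand) encodes acid sphingomyelinase, which releases ceramide from sphingomyelin. Its group means were 101.5 ± 18.7 CPM after PBS, 102 ± 10.2 after IL-17A, 125 ± 15.7 with IL-36γ and 125.5 ± 21.7 with the combination. PBS replicate 1, at 123 CPM, lay within the range of the groups with IL-36γ. The change of 0.30 (95% interval -0.03 to 0.63, adjusted p = 0.149) after IL-36γ and of 0.31 (95% interval -0.02 to 0.63, adjusted p = 0.116) after the combination did not pass. Without PBS replicate 1 both passed, with 0.46 (adjusted p = 0.0247) and 0.47 (adjusted p = 0.0169), and without combination replicate 2 the latter passed with 0.42 (adjusted p = 0.0494).

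Pnpla1 (ENSMUSG00000043286, chr17:28858411-28890309, plus strand) encodes the transacylase that attaches linoleic acid to the hydroxylated ceramide. It measured 71.9, 49.0 and 49.0 CPM after PBS, 44.2, 52.6 and 62.3 after IL-17A, 81.5, 74.2 and 70.1 after IL-36γ, and 97.8, 69.4 and 78.5 after the combination. Only PBS replicate 1 reached the range of the groups with IL-36γ. Pnpla1 rose after the combination (0.53, SE 0.17, adjusted p = 0.0249) and did not pass after IL-36γ (0.41, SE 0.17, adjusted p = 0.0904). Without PBS replicate 1 it passed in both (0.74 with adjusted p = 0.00212 and 0.62 with adjusted p = 0.00921), and without PBS replicate 2, PBS replicate 3 or combination replicate 1 the change after the combination was 0.44, 0.44 and 0.39 and no longer passed. It also missed the threshold with scaling by library size (0.39, adjusted p = 0.0615) and when PBS and the combination alone were fitted (0.53, adjusted p = 0.0591). Of the 4837 exon bases of Pnpla1, 644 are shared with the antisense gene Pnpla1os, which held 0 to 7 counts per library.

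All 3 libraries lay above all 3 PBS libraries for 5 members after IL-36γ (22.4% of all genes) and for 5 after the combination (27% of all genes), the same 5 in both, namely Sptlc2, Elovl1, Cers3, Ugcg and Abca12. These comparisons share the PBS libraries. Sptlc2, Cers3 and Abca12 passed after IL-36γ in all 19 alternative fits. Elovl1 and Ugcg did so in 15 and 13 of them. Both were lost without PBS replicate 2, PBS replicate 3 or IL-36γ replicate 1, which left 3 members, and also with scaling by library size. Ugcg alone was lost without IL-36γ replicate 2 and when PBS and IL-36γ alone were fitted. Without PBS replicate 1, 7 members passed after IL-36γ and 8 after the combination. All 5 passed after the combination in each of the 19 fits.

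**Figure D2:**
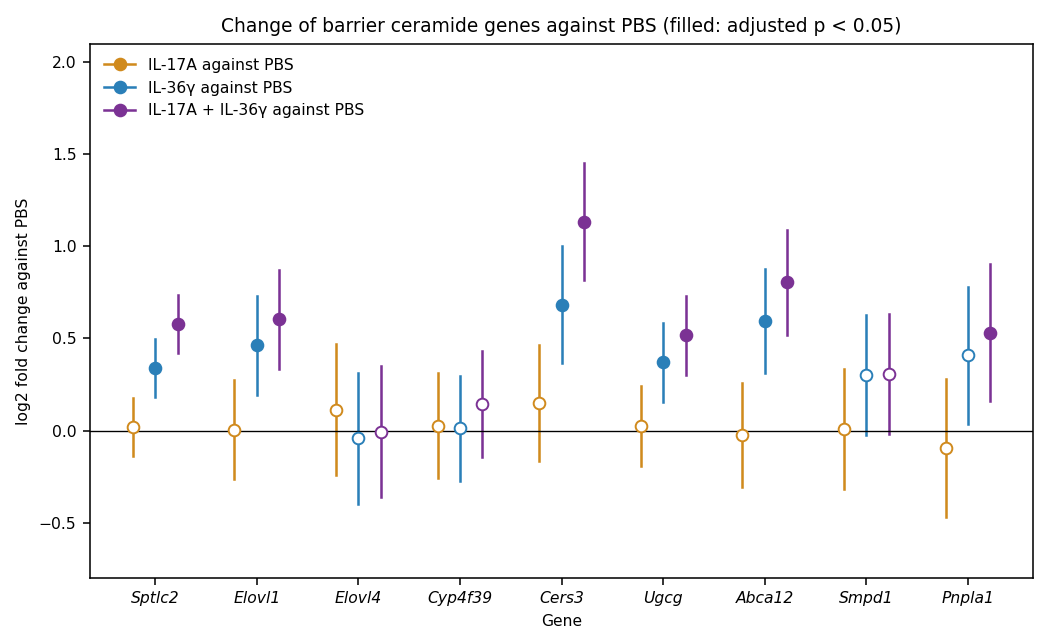
log2 fold change against PBS (vertical axis) of the 9 genes in each cytokine group, with 95% intervals as lines. Filled points passed at an adjusted p below 0.05, and open points did not. Values after IL-17A lie between -0.10 and 0.15, and the largest is 1.13 for Cers3 after the combination.

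After IL-17A alone the changes against PBS ranged from -0.10 for Pnpla1 to 0.15 for Cers3. In edgeR no member passed and none had an unadjusted p below 0.05, and DESeq2 also called 0. The 95% interval of every member included 0, and the widest bound was -0.47 for Pnpla1 and 0.47 for Elovl4 and Cers3. Changes within the interval of a member are therefore not excluded. Without PBS replicate 1, Elovl4 alone passed, as given above.

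Adding IL-36γ to IL-17A, by contrast, raised 6 members over IL-17A alone, where 15.1% of all genes were raised. Cers3 rose by 0.98 (SE 0.15, adjusted p = 7e-04), Abca12 by 0.83 (SE 0.13, adjusted p = 0.000914) and Sptlc2 by 0.56 (SE 0.07, adjusted p = 0.000376). Pnpla1 rose by 0.63 (adjusted p = 0.0158), Elovl1 by 0.60 and Ugcg by 0.49. None passed the fold threshold of the study, which 4.46% of all genes did. Pnpla1 did not pass without IL-17A replicate 1 (0.53, adjusted p = 0.0513) or without combination replicate 1 (0.48, adjusted p = 0.0728).

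Adding IL-17A to IL-36γ gave smaller differences. None of the 9 members passed against IL-36γ alone, and the share of all genes raised there was 0%. All 9 differences were positive, between 0.01 and 0.45. The sign was not stable for Smpd1, which turned to -0.01 with no filter on low counts, nor for Elovl1, Elovl4, Pnpla1 and Smpd1 with libraries left out, where the lowest values were -0.001, -0.04, -0.025 and -0.123. For Cers3 (0.45, SE 0.14, adjusted p = 0.195) and Sptlc2 (0.24, SE 0.07, adjusted p = 0.179) all 3 combination libraries lay above all 3 IL-36γ libraries, which held for 9.33% of all genes. Both had an unadjusted p below 0.05 in edgeR, and the likelihood ratio test of DESeq2 called them both (adjusted p = 0.0408 and 0.0298). In that test 188 of all genes were raised and 539 lowered, against 0 and 4 in edgeR.

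Compared directly, IL-36γ gave higher levels than IL-17A for 4 members, namely Abca12 (0.62, adjusted p = 0.0175), Sptlc2 (0.32, adjusted p = 0.0231), Elovl1 (0.46, adjusted p = 0.0438) and Cers3 (0.53, adjusted p = 0.0452), where 4.37% of all genes were raised. Those 848 genes became 127 without IL-17A replicate 2, 164 without IL-36γ replicate 2, 450 without IL-36γ replicate 1, 482 without IL-17A replicate 3 and 1343 without PBS replicate 1. Ugcg was just outside the threshold (0.34, adjusted p = 0.0538). These calls rested on single libraries. No member passed without IL-17A replicate 2, IL-36γ replicate 1 or IL-36γ replicate 2. Without IL-17A replicate 3 the number was 1, it was 2 without IL-17A replicate 1, PBS replicate 3 or combination replicate 3, 3 without PBS replicate 2 and 6 without PBS replicate 1. The direction of these 4 was kept throughout. With IL-36γ replicate 3 left out the count stayed at 4, with Ugcg passing (0.47, adjusted p = 0.0109) and Elovl1 not (0.50, adjusted p = 0.0627).

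The interaction, which is the effect of IL-17A on ears given IL-36γ less its effect on ears given PBS, was not called for any member. It ranged from -0.08 for Elovl4 to 0.30 for Cers3, and the smallest adjusted p was 0.222 for Sptlc2 (0.22, 95% interval 0 to 0.45). No member had an unadjusted p below 0.05 in edgeR, DESeq2 called 0, and 0.551% of all genes passed in either direction, 25 raised and 82 lowered, which became 521 and 1013 without PBS replicate 1 and 0 and 1 without IL-36γ replicate 1. The intervals were wide, from -0.15 to 0.74 for Cers3, so an interaction within them is not excluded.

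Levels per length order the members within an ear. Divided by the exon length in kilobases, Elovl4 stood far above the rest in every group, with 364 ± 106 CPM per kilobase after PBS and 362 ± 18.7 after the combination. Elovl1 (51.9 ± 2.8) and Abca12 (39.5 ± 4.4) followed after PBS without overlapping each other, whereas after the combination their libraries overlapped (78.8 ± 14.9 and 68.9 ± 6.8). Smpd1, Cers3, Ugcg and Cyp4f39 lay between 19.8 and 30.4 after PBS, each overlapping the next. Cers3 moved from the fifth place after PBS (23.8 ± 4.1) to the fourth after the combination (52.2 ± 7.2), where its libraries were apart from those of Smpd1 below it and Abca12 above it. Pnpla1 and Sptlc2 were the lowest in every group, with 11.7 ± 2.7 and 9.50 ± 0.47 after PBS.

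**Figure D3:**
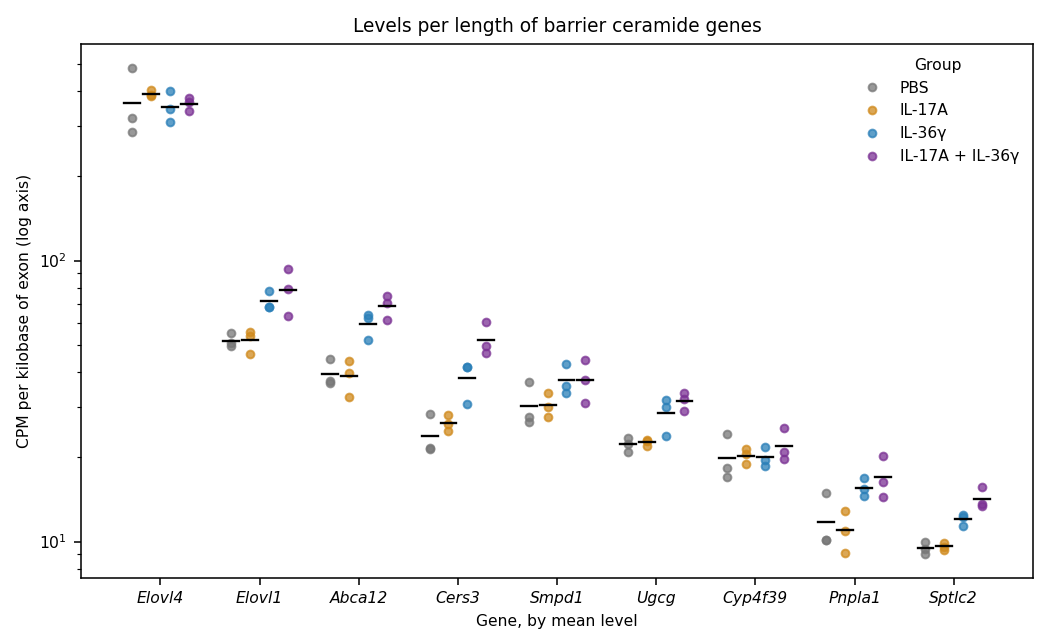
Level of the 9 genes in CPM per kilobase of exon (vertical log axis), with points for mice colored by group and bars for group means, sorted by mean level. Group means of Elovl4 lie between 353 and 393, and Sptlc2, at 9.50 after PBS and 14.2 after the combination, is the lowest.

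The balance of the elongases followed from these levels and was looked at after the values were known, so it is given without a test. Elovl1 reached 11.4%, 17.8% and 15.5% of the Elovl4 level in the PBS libraries and 11.4%, 14% and 14.4% after IL-17A. It reached 19.5%, 19.7% and 21.9% after IL-36γ and 24.8%, 17.3% and 23.3% after the combination. All IL-36γ libraries lay above all libraries of the groups without IL-36γ, and combination replicate 2 lay below PBS replicate 2. This ratio is taken within a library and is independent of the scaling between libraries.

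**Figure D4:**
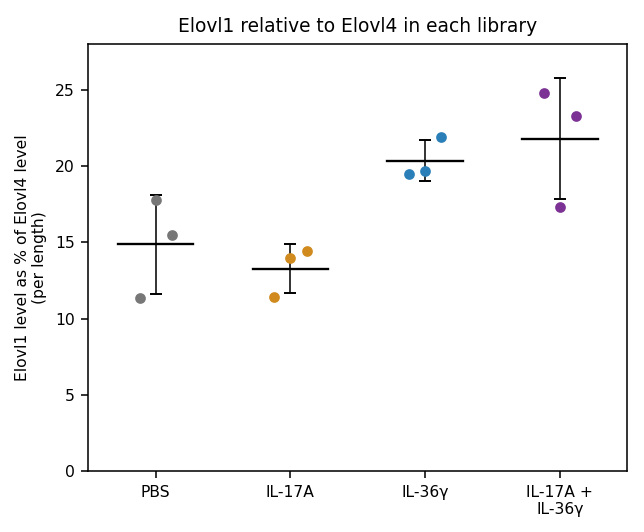
Elovl1 level as a percentage of the Elovl4 level, both per length (vertical axis, from 0), in each library, with group means as long bars and SD of 3 mice as error bars. The PBS mean is 14.9% and the IL-17A mean 13.3%, whereas IL-36γ ears average 20.4% and ears given the combination 21.8%.

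Of 55 other genes of ceramide metabolism, all but Elovl2 were tested. After IL-17A 3 were raised (Degs1, Hacd4 and Asah1) and 1, Cers5, was lowered, where 7.44% of all genes were raised and 3.49% lowered. None of these 4 calls was made without PBS replicate 3, without IL-17A replicate 1 or when PBS and IL-17A alone were fitted. Without PBS replicate 2 or IL-17A replicate 2 only 1 gene was raised, and without PBS replicate 1 the counts were 9 raised and 1 lowered. After IL-36γ 15 were raised and 5 lowered (17.3% of all genes raised and 11.1% lowered). After the combination 19 were raised and 12 lowered (23.7% of all genes raised and 20.9% lowered). The medians over the 54 genes were -0.002, 0.013 and 0.04, close to those of all genes, whereas the medians over the 9 members were 0.02, 0.37 and 0.53. The members had been chosen with earlier results of these data known. The lists differed, with medians after IL-36γ from -0.157 for the other ceramide synthases to 0.561 for the genes of lipid envelope oxidation and attachment. After the combination the medians of the same lists were -0.471 and 0.907. A median rise of this size was thus not particular to the members. Without PBS replicate 3 the counts after IL-36γ were 10 raised and 2 lowered, without IL-36γ replicate 2 they were 12 and 2, without IL-36γ replicate 3 they were 17 and 3, and without PBS replicate 2 or IL-36γ replicate 1 only 10 were raised. Without PBS replicate 1 the counts were 19 raised and 4 lowered after IL-36γ, and 22 and 10 after the combination. With scaling by library size the counts after IL-17A, IL-36γ and the combination turned to 1 raised and 3 lowered, 11 and 15, and 17 and 18. Names in the account of the lists below, apart from Degs1, Degs2, Hacd4, Elovl5, Smpd3 and Sdr9c7, were chosen after their values were seen.

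Among 10 further genes of de novo synthesis, 4 were raised and 2 lowered after the combination, against 23.7% and 20.9% of all genes. Degs2, the desaturase and hydroxylase that makes phytoceramides, rose most, from 8.57 ± 3.76 CPM after PBS to 28.5 ± 7.8 after IL-36γ (1.73, adjusted p = 0.00601) and 41.8 ± 13.4 after the combination (2.29, adjusted p = 0.000585). Degs1, the desaturase that completes ceramide, rose from 160 ± 24.8 to 321 ± 48.2 CPM after the combination (1.00, adjusted p = 0.000142), and it was also raised after IL-17A (0.50, adjusted p = 0.038). Sptlc1, the partner subunit of Sptlc2, was raised (0.40), as was Ormdl2 (0.60), while Ormdl3 (-0.45) and Kdsr (-0.20) were lowered. The ORMDL proteins restrain serine palmitoyltransferase, so the members of this list do not act in a single direction.

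Of the 5 other ceramide synthases, which prefer shorter chains than Cers3, none was raised and Cers5 was lowered after the combination (-0.81, adjusted p = 1.72e-05). Among 10 tested genes of elongation 2 were raised and 3 lowered. Hacd4, a dehydratase of the elongation cycle, rose from 19.4 ± 0.6 to 42.3 ± 2.4 CPM (1.13, adjusted p = 1.41e-05), and Elovl7 rose by 0.50. Elovl5, an elongase of polyunsaturated chains, fell from 137 ± 4.7 to 64.4 ± 5.5 CPM (-1.09, adjusted p = 0.000101), with Hacd2 (-0.64) and Elovl6 (-0.54) lowered as well. Of the 4 genes of fatty acid activation, hydroxylation and acylceramide assembly, Abhd5 (0.37), a partner of Pnpla1, and Nipal4 (0.52) were raised, and Fa2h (-0.87) was lowered.

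Of 10 genes of glucosylceramide and sphingomyelin turnover, 5 were raised after the combination, among them Smpd3, Gltp and Psap, and 2, Sgms1 and Col4a3bp, were lowered. Psap, the precursor of the saposins, rose by 0.60 and Gltp, a glycolipid transfer protein, by 0.82. Smpd3, a neutral sphingomyelinase, rose from 49.2 ± 11.7 to 122 ± 48.8 CPM (1.31, adjusted p = 0.00317). Among 10 genes of ceramide breakdown, Asah1 (0.38) and Asah2 (0.74) were raised and Sphk1 (-0.77), Acer3 (-0.37) and Acer2 (-0.36) lowered. Of the 5 genes that oxidize the acylceramide and bind it to the cell envelope, 4 were raised, and Sdr9c7, a dehydrogenase of this step, rose from 99.1 ± 15.4 to 205 ± 32.8 CPM (1.05, adjusted p = 0.000186). The others were Ephx3 (0.91), Tgm1 (0.91) and Alox12b (0.71).

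**Figure D5:**
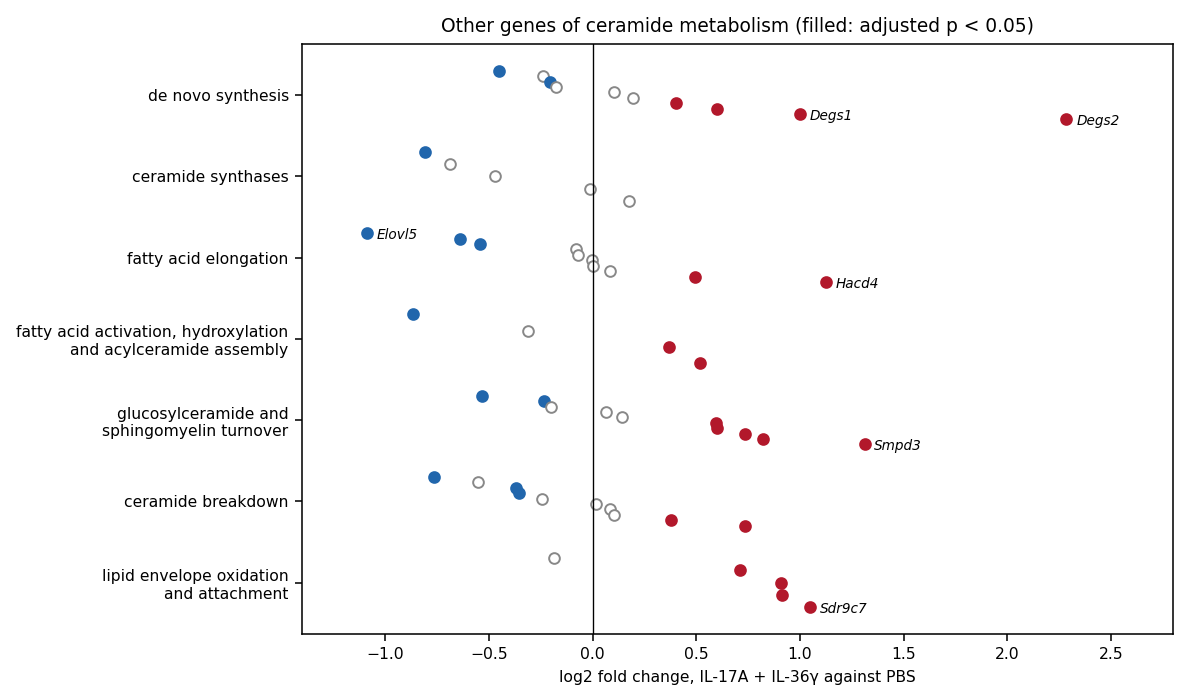
log2 fold change after IL-17A + IL-36γ against PBS (horizontal axis) of the 54 tested genes of ceramide metabolism outside the 9 members, grouped by role. Red points were raised and blue points lowered at an adjusted p below 0.05, open points did not pass, and genes beyond a log2 fold change of 1 are named. The 19 raised and 12 lowered genes lie on both sides of 0 in most roles.

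Markers of several cell types moved together with the members after IL-36γ and the combination, and some also moved after IL-17A, where no member passed. After IL-17A 5 of 6 macrophage genes, 4 of 6 neutrophil genes, 2 of 8 genes of differentiating and 1 of 5 genes of basal keratinocytes were raised, and 1 of 5 hair follicle genes was lowered. The sum of basal keratinocyte markers was then 11230 to 13990 CPM and that of neutrophil genes 230.3 to 507.4 CPM. Among all genes 7.44% were raised and 3.49% lowered after IL-17A. The 1443 raised genes fell to 19 without PBS replicate 3 and to 17 when PBS and IL-17A alone were fitted. Whether the calls of markers hold in such fits was not tested. Of the 8 genes of differentiating keratinocytes 6 were raised after IL-36γ, and after the combination 4 were raised and 1 was lowered. Of 4 genes of hyperproliferative keratinocytes 3 and 4 were raised, and their sum went from 325 to 526 CPM after PBS to 6261 to 10590 CPM after the combination. Basal keratinocyte markers summed to between 8124 and 10270 CPM after PBS and between 15550 and 19620 after the combination, with 2 of 5 raised and 1 lowered. Krt14 and Krt5 carried most of this sum, with up to 12000 and 5870 CPM, whereas Col17a1, the next highest, reached 1260 CPM. The median change of the 5 genes was 0.188, with a range from -0.422 to 1.383. All 6 neutrophil genes were raised after IL-36γ and after the combination, and Ly6g had no count in 4 libraries. Their sums were 10.9 to 57.3 CPM after PBS and 4467 to 6262 after the combination. S100a9 carried most of the sum after the combination, with up to 6080 CPM in a library, whereas Csf3r, the next highest, reached 102 CPM. The paper names macrophages and keratinocytes as further sources of S100A8/A9. Of 6 macrophage genes 5 were raised after the combination. Among all genes 17.3% were raised after IL-36γ and 23.7% after the combination, where 20.9% were lowered. The sums of sebaceous gland genes (6184 to 10050 CPM after PBS, 3280 to 4097 after the combination, 4 of 6 tested lowered, with Mogat2 not tested and at no count in 2 libraries), of cartilage genes (169.5 to 231 and 76.3 to 107 CPM, 4 of 4 lowered), of adipocyte genes (155 to 197 and 51.4 to 95.2 CPM, 5 of 5 lowered), of fibroblast genes (5253 to 5994 and 3691 to 4239 CPM, 3 of 5 lowered), of hair follicle genes (35.2 to 47.6 and 13.5 to 23.4 CPM, 1 of 5 lowered) and of skeletal muscle genes (173 to 1754 and 88.7 to 619.6 CPM, 1 of 5 lowered) were lower after the combination, with overlapping libraries for muscle. Scd1, at a mean of 6980 CPM after PBS, made up most of the sebaceous gland sum. The part of the shifts of markers in the change of the members was not tested.

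Genes with the most similar profile over the 12 libraries were named for 5 members by Pearson's r of log2 CPM, as a description of libraries that share group and tissue makeup. For Cers3 they were Sult2b1 (r = 0.991), a sterol sulfotransferase, Slc28a3 (0.988), a nucleoside transporter, and Elf5 (0.985), a transcription factor. For Abca12 they were Sdr9c7 (0.99), Nkpd1 (0.985) and Map4k5 (0.982), and for Pnpla1 Lypd5 (0.982), Cptp (0.981), a ceramide-1-phosphate transfer protein, and Zswim4 (0.977). Elovl4 had as its nearest genes Hsd17b12 (0.948), the ketoacyl reductase of the elongation cycle, Tlcd2 (0.931) and Krt79 (0.924). None of these 3 passed after the combination, with changes of 0.00, -0.18 and -0.10. Jagn1 (0.931), Polr2h (0.912) and Sdr39u1 (0.911) were nearest to Cyp4f39.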

How the data were processed

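Total RNA from a part of the ear was made into libraries with a stranded kit and sequenced in pairs of 76 bases. Reads were mapped to mm10 by the authors using STAR 2.5.2b, who deposited the count of reads per Ensembl gene from featureCounts (Subread 1.5.1), unnormalized, with 1 column per mouse. The strand setting of the counting is not given in the sources used here. The authors also deposited 5 tables with mean counts, log2 fold changes, standard errors and p-values of their own comparisons. Only the pairing of gene identifiers with symbols was used from them.

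Libraries were grouped by their labels. Deviations of libraries with the same replicate number correlated between -0.199 and 0.352, with 9 of 18 correlations over 0.1. Only between IL-36γ and the combination was this so for every number, at 0.128 to 0.24. No replicate block was therefore used. Genes were filtered with filterByExpr (minimum count 10), scaled by TMM and fitted by group means over all 12 libraries in edgeR 4.0.16 (R 4.3.3). Benjamini-Hochberg adjustment was over 19408 genes. Intervals are 95% intervals from the same fit. Nothing states how the mice were housed or the RNA was batched, so p-values measure the spread between these mice. No library was a copy of another of its group (chi-square per gene 7.09 to 64), and pairs between groups were not compared. Exon lengths, coordinates and overlaps came from GENCODE vM21 (GRCm38), in which no 76-base window of 7 members occurs in another gene. For Pnpla1 12.1% of the windows occur also in Pnpla1os or Zfp783, and for Ugcg 0.0195% in Gm42463. Log2 CPM used a prior count of 2. The test was run on simulated counts beforehand.

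Members and lists were chosen with earlier results of these data known. All members are named, and of the other genes those passing an adjusted p of 0.05 and a log2 fold change beyond 1 in a comparison against PBS (at most 4 a list) and the 3 most alike in profile for 5 members. The alternatives were the likelihood ratio test of DESeq2 1.42.0, other scalings, other filters, only the groups compared, the threshold of the study, a replicate block and each library left out in turn. The qRT-PCR and histology were not analysed here, and the result of 1 listed gene is not reported here.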

Additional observations from a re-analysis of the deposited data

How the results depend on the processing

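Of the 63 changes of members in 7 comparisons, the 21 that passed kept their sign in all 399 alternative fits and passed in 359 of them. The 42 that did not pass did so in 18 of 789 fits and changed sign in 102, in none of which they passed. Asking also for a log2 fold change above 1 left 0 members for IL-36γ against PBS, 1 for the combination against PBS, 0 for the combination against IL-17A and 0 for IL-36γ against IL-17A. Scaling by library size left 3 members for IL-36γ against PBS, and DESeq2 called 2 for the combination against IL-36γ. With each library left out in turn, the number passing ranged from 0 to 1 for IL-17A against PBS, from 3 to 7 for IL-36γ against PBS and from 0 to 6 for IL-36γ against IL-17A. The cause was not tested. Leaving out a library left 2 mice in that group. No count of a member in a library was below 1175.

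The replicate numbers did not pair the samples over the series. Deviations of libraries with the same number correlated between -0.199 and 0.352 (median 0.097), with 9 of 18 correlations over 0.1. Only between IL-36γ and the combination were all 3 over 0.1 (0.128, 0.188 and 0.24), and there the block changed no call of a member. With the replicate block the numbers of members passing were 0, 5 and 6 against PBS, 6 for the combination against IL-17A, 0 against IL-36γ, 4 for IL-36γ against IL-17A and 0 for the interaction, equal to those without it. Over all genes the interaction was called for 25 raised and 82 lowered genes without the block, for 391 and 492 with it and for 665 and 1152 in DESeq2. DESeq2 raised 2436 genes after IL-17A and 1583 for IL-36γ against IL-17A, against 1443 and 848 in edgeR.

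Changes of sign among members that did not pass were as follows. For IL-17A against PBS, scaling by library size gave -0.162 for Elovl1, -0.152 for Sptlc2, -0.144 for Ugcg, -0.014 for Cers3, -0.051 for Elovl4, -0.155 for Smpd1 and -0.138 for Cyp4f39. No filter gave -0.032 for Elovl1, -0.02 for Sptlc2, -0.013 for Ugcg, -0.029 for Smpd1 and -0.01 for Cyp4f39, and a filter of 10 counts in every library gave -0.017 for Elovl1, -0.004 for Sptlc2 and -0.014 for Smpd1. Fitting only these groups gave -0.031 for Elovl1, -0.018 for Sptlc2, -0.012 for Ugcg, -0.028 for Smpd1 and -0.008 for Cyp4f39. DESeq2-type size factors gave -0.012 for Elovl1 and -0.01 for Smpd1, and DESeq2 gave -0.005 and -0.002. For Cyp4f39 in IL-36γ against PBS the values were -0.135 by library size and -0.005 with either filter, and in IL-36γ against IL-17A 0.003 by library size and 0.005 with no filter. Elovl4 in the combination against PBS was 0.02 with the replicate block, and Smpd1 in the combination against IL-36γ was -0.009 with no filter. The interaction of Smpd1 was 0.028 with DESeq2-type size factors, 0.171 by library size, 0.02 and 0.021 with no filter and the stricter filter and 0.018 in DESeq2, and that of Elovl4 was 0.097 by library size.

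With libraries left out, the ranges for IL-17A against PBS were -0.053 to 0.053 for Elovl1, -0.037 to 0.06 for Sptlc2, -0.025 to 0.07 for Ugcg, -0.042 to 0.376 for Elovl4, -0.085 to 0.172 for Smpd1, -0.224 to 0.117 for Pnpla1, -0.118 to 0.075 for Abca12 and -0.082 to 0.201 for Cyp4f39. For IL-36γ against PBS they were -0.189 to 0.222 for Elovl4 and -0.092 to 0.184 for Cyp4f39, and for the combination against PBS -0.146 to 0.258 for Elovl4. Against IL-36γ the combination gave -0.001 to 0.283 for Elovl1, -0.04 to 0.146 for Elovl4, -0.123 to 0.137 for Smpd1 and -0.025 to 0.239 for Pnpla1. IL-36γ against IL-17A gave -0.07 to 0.042 for Cyp4f39, and the interaction -0.008 to 0.311 for Elovl1, -0.34 to 0.086 for Elovl4, -0.165 to 0.162 for Smpd1 and -0.069 to 0.223 for Cyp4f39.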

Other observations

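Within groups the 9 members tended to deviate together. Over the 12 libraries, the deviations from the group means in log2 CPM were positively correlated in all 36 pairs of members. The median Pearson's r was 0.684 and the range 0.289 to 0.949, as a description of libraries that share scaling and tissue makeup. Pairs of other genes were not computed, so whether this is particular to the members was not tested. PBS replicate 1 was the highest of its group for 9 of 9 members and combination replicate 1 for 8 of 9. IL-36γ replicate 3 was the highest for 0 of 9.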
